A study of Chlorocebus sabaeus with 45 samples.

Results

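The genes described here are 10 gatekeepers of glucose use: the glucose transporters SLC2A1 and SLC2A3, the hexokinases HK1, HK2 and HK3, the phosphofructokinase subunits PFKL, PFKM and PFKP, and the regulatory enzymes PFKFB3 and PFKFB4. They were chosen by gene symbol. All 10 were found among the 33994 rows of each table, and all 10 were among the 18753 genes that passed the filter on low values and were tested. Their RNA was followed in whole blood of 15 juvenile male vervets (*Chlorocebus sabaeus*) at 3 time points, which gave 45 libraries. The animals were wild-caught on St. Kitts, each from a different troop, and were then housed singly under quarantine. Day 0 blood was drawn in the field under ketamine and xylazine. Blood of day 3 and day 14 was drawn in the facility with dexmedetomidine and midazolam as sedatives. In comparisons with day 0 the time since capture, the sedatives and the place therefore cannot be told apart, while day 3 and day 14 shared sedatives and place. The labels give 14 days for the last time point, and the series text gives day 15. For the middle time point the labels give day 3, which is used here, and a passage on blood collection in the methods names day 7.

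Cells take up glucose through transporters of the SLC2A family and trap it by phosphorylation, which hexokinases carry out. Phosphofructokinase then makes the first step that commits the sugar to glycolysis, and the PFKFB enzymes make and remove the small molecule that most strongly activates it. Blood cells differ in the forms they use. Red cells, which have no mitochondria, carry SLC2A1 protein (GLUT1) and live on glycolysis, neutrophils carry SLC2A3 protein (GLUT3) and HK3, and PFKP is the phosphofructokinase subunit named for platelets.

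On both later days the glucose transporters moved in opposite directions. SLC2A1 rose 2.38-fold by day 3 and 3.74-fold by day 14, while SLC2A3 fell to 0.447 and 0.354 of its day 0 level. HK1 rose on both days and PFKFB3 fell on both days. The 3 phosphofructokinase subunits rose on day 3, and HK2, HK3 and PFKFB4 fell on day 14. On day 3, 7 of the 10 genes passed an adjusted p of 0.05 (limma), 5 up and 2 down, where 12.4% of all tested genes did. On day 14 it was 8 of 10, 3 up and 5 down, where 36.2% of all tested genes did. From day 3 to day 14, 2 of 10 passed, both down (HK2 and PFKP), where 14.5% of all tested genes did. With the animal as a replicate block, PFKL and PFKFB4 were also lower on day 14 than on day 3, which made 4 of 10, where 25.4% of all tested genes passed in that fit. Without TMM scaling, explained below, 5 passed on day 3 (3 up and 2 down), 6 on day 14 (1 up and 5 down) and 8 between day 3 and day 14 (all down). In that fit 8.7%, 49.4% and 38.6% of all tested genes passed, and 91.6% of those that passed between day 3 and day 14 were down. When the RNA integrity number entered the fit as a covariate, the calls of PFKL and PFKFB3 on day 3 and of HK2, HK3, PFKM and PFKFB4 on day 14 were lost (adjusted p from 0.0605 to 0.274), and 7.9% and 21.8% of all tested genes passed on these days. In that fit 1 of the 30 fold changes passed that did not in the main fit. By the study's supplement, the number was higher in most animals on day 3 and on day 14 than on day 0. The covariate thus overlaps with the day, and why these calls were lost was not tested. The median log2 fold change of the 10 genes was 0.29, −0.11 and −0.36 in the 3 comparisons, and that of all tested genes was 0.01, −0.05 and −0.05. Both comparisons with day 0 use the same 15 day 0 libraries. The main limma fit has no animal term. Its p-values therefore do not test the counts of animals higher or lower that are printed beside them.

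**Figure D1:**
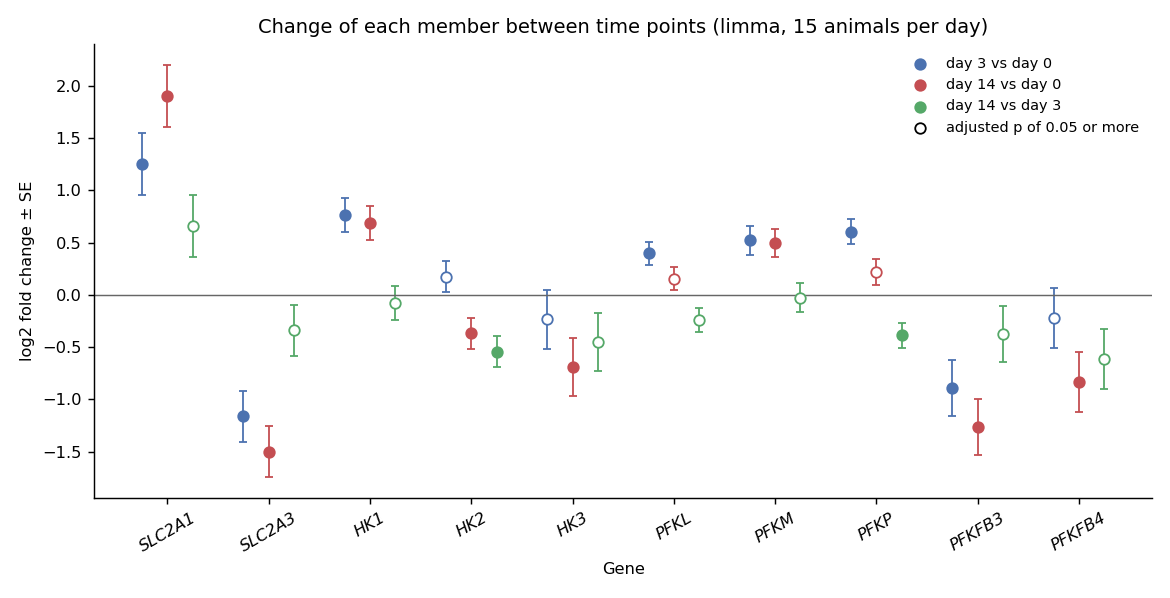
Log2 fold change of each gene (y axis, with its standard error) for day 3 vs. day 0 (blue), day 14 vs. day 0 (red) and day 14 vs. day 3 (green); filled circles have an adjusted p under 0.05 (limma, 15 animals per day). SLC2A1 reaches 1.90 and SLC2A3 −1.50 on day 14. The small day 14 values of PFKL and PFKP against day 0 are above 0 as drawn and below 0 without TMM scaling.

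Levels are given as FPKM, fragments per kilobase of gene and scaled to the total of fragments on genes, divided by a TMM factor (trimmed mean of M values) that puts the libraries on a common scale. Between 13216275 and 31469332 fragments per library fell on genes. The thinnest gene, PFKM, rested on 36 to 331 fragments per library, and SLC2A3 on 2875 to 52552. Without TMM the median log2 fold change over the tested genes was −0.36 for day 14 against day 0 and −0.35 for day 14 against day 3, so that changes on day 14 are relative to the typical gene. The labels name no sequencing batch. Fewer cells of a type and less RNA per cell cannot be told apart in bulk blood.

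Marker genes of blood cell types moved with time too. Of 10 erythroid markers 5 rose on day 3 and 10 on day 14, and their summed level had a median of 5001 FPKM on day 0 (466 to 24194), 14979 on day 3 (3751 to 44970) and 36864 on day 14 (7712 to 67350). Of 10 neutrophil markers 5 fell on day 3 and 9 on day 14, with medians of 3480 FPKM (1230 to 40430), 2498 (503 to 6669) and 2054 (502 to 4145). Of 8 tested platelet markers 7 rose on day 3 and 2 on day 14, with medians of 628 FPKM (240 to 4312), 1991 (563 to 4874) and 1425 (413 to 3400). Each sum was mostly 1 gene. On day 0 the mean level was 6314 FPKM for ALAS2, 8135 for S100A9 and 764 for PPBP. The next markers were at 890 (CA1), 1077 (S100A8) and 70.8 (TUBB1). On day 3 ALAS2 and S100A9 did not pass the threshold (limma, adjusted p = 0.116 and 0.132). S100A9 weighs most in the sum that sets 3 day 0 libraries apart below. Monocyte markers had 2 up and 1 down of 7 on day 3 and 4 down on day 14, T cell markers 0 and 1 up of 6, B cell markers 0 and 1 down of 5 (for both, 0 on day 3 also at an unadjusted p under 0.05 and with limma-voom), and NK cell markers 2 and 4 up of 6. No marker that was found had a median of 0 on any day, and PF4 and TRAT1 were not analysed here. On day 0, 3 libraries stood apart by their neutrophil markers: animal 15 at 40430 FPKM, animal 11 at 37742 and animal 7 at 28382, where the next animal was at 10503. The calls of the 10 genes that these 3 libraries decide are given without them below, as are the counts of the other lists. Without them 7 erythroid, 7 platelet and 0 NK cell markers rose and 1 neutrophil marker fell on day 3, and 10, 2 and 5 rose and 6 fell on day 14, beside 5 of 5 B cell markers. Of the monocyte markers 2 rose on day 3 and 1 fell on day 14 without them, where 4 fell with them, and 0 T cell markers passed on either day. With the replicate block 8 erythroid, 8 platelet and 5 NK cell markers rose and 7 neutrophil markers fell on day 3. On day 14 in that fit 10, 4 and 5 rose, 9 neutrophil and 2 B cell markers fell, and 3 T cell markers rose. Without TMM scaling 8 erythroid, 7 platelet and 0 NK cell markers rose on day 3, while 6 neutrophil and 1 monocyte markers fell. On day 14 without it 10, 1 and 4 rose, and 10 neutrophil, 4 monocyte, 4 B cell and 1 T cell markers fell, so that the T cell count turned its direction.

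**Figure D2:**
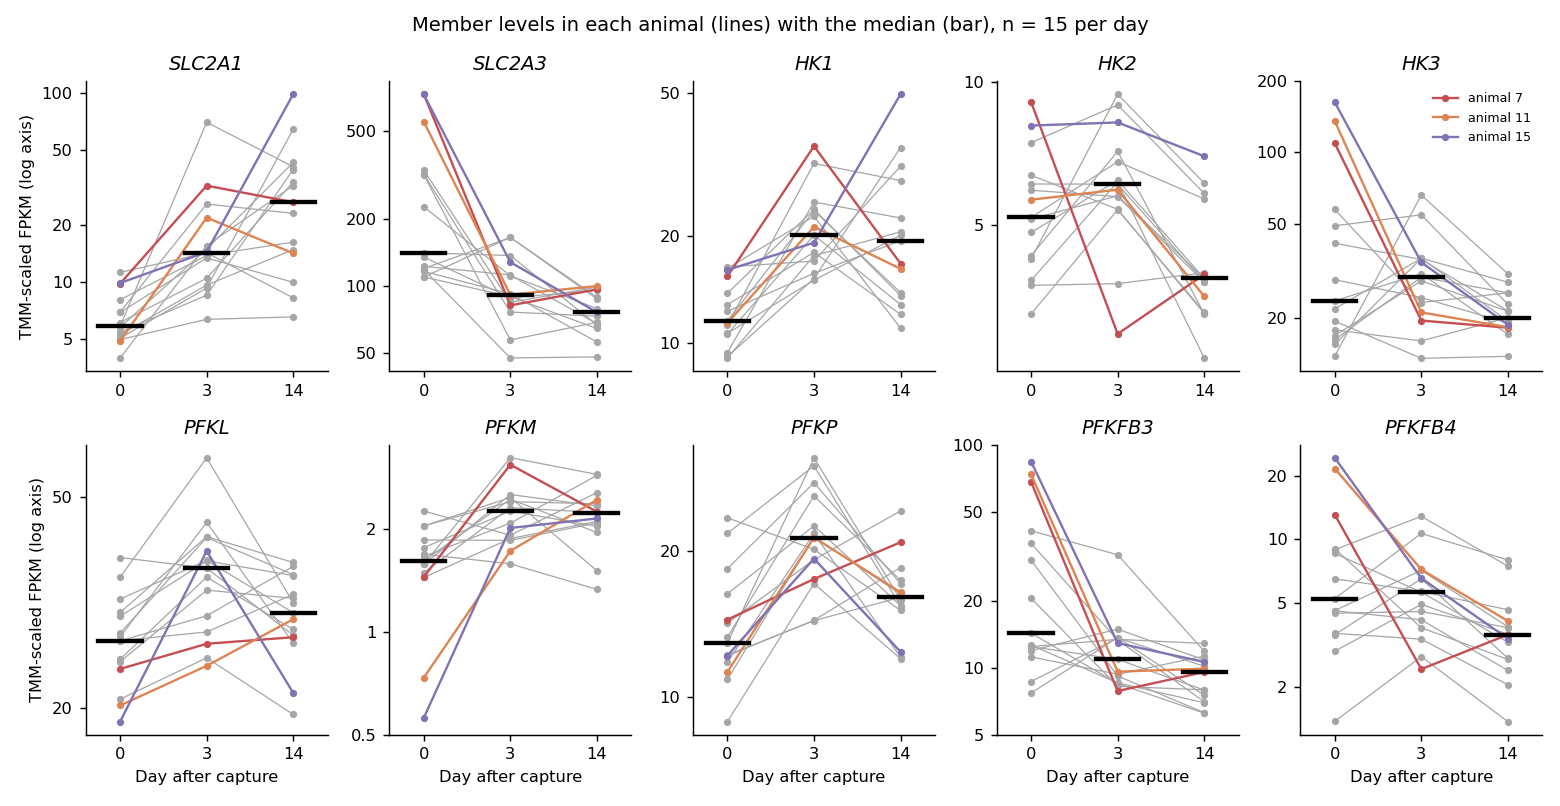
TMM-scaled FPKM (log axis, each panel with its own range) of the 10 genes on days 0, 3 and 14; each line is 1 of 15 animals and the black bar is the median. Animals 7, 11 and 15 are in colour, and on day 0 they are the 3 highest of SLC2A3, HK3, PFKFB3 and PFKFB4.

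SLC2A1, the basal glucose transporter of many tissues, lay between 3.97 and 11.3 FPKM on day 0, with a median of 5.84. On day 3 its lowest, median and highest levels were 6.35, 14.3 and 70.3 FPKM, and on day 14 they were 6.54, 26.5 and 99.1 FPKM. On day 3, 10 of 15 animals were above the whole day 0 range, and on day 14 it was 12 of 15. The highest values came from different animals, animal 6 on day 3 (the next was at 32.5 FPKM) and animal 15 on day 14 (the next was at 64.6 FPKM). SLC2A1 was higher in 15 of 15 animals on day 3 (log2 fold change 1.25 with a standard error of 0.30, adjusted p = 0.00487, limma) and in 14 of 15 on day 14 (1.90, standard error 0.30, adjusted p = 5.24e-06). The coefficient of variation between animals was 32.2% on day 0, 84.5% on day 3 and 78.0% on day 14. Without the highest library of each day it was 28.4%, 47.8% and 62.2%, so that much of the day 3 value rests on animal 6. Its change from day 3 to day 14 did not pass the threshold (0.65, adjusted p = 0.122, higher in 9 of 15). It did without the 2 libraries that had over 30000 genes detected (0.79, adjusted p = 0.0480). Of these only the day 14 library of animal 4 is in this comparison, and it held the lowest day 14 level, 6.54 FPKM.

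SLC2A3, a transporter with a high affinity for glucose, had the highest median of the 10 genes on each day. Its lowest, median and highest levels were 110, 141 and 728 FPKM on day 0, 47.5, 91.4 and 166 FPKM on day 3, and 48.1, 76.2 and 100.0 FPKM on day 14. All 15 day 14 values were below the lowest day 0 value, and 9 of 15 day 3 values were. For 25 of all tested genes (0.133%) the ranges of day 0 and day 14 did not overlap. SLC2A3 was lower in 13 of 15 animals on day 3 (log2 fold change −1.16 with a standard error of 0.24, adjusted p = 0.00160) and in 15 of 15 on day 14 (−1.50, standard error 0.24, adjusted p = 8.00e-06). The coefficient of variation between animals went from 79.4% on day 0 to 34.2% and 20.9%. Animals 7, 15 and 11 were at 728, 726 and 547 FPKM on day 0. Without these 3 day 0 libraries the log2 fold changes were −0.76 (adjusted p = 0.00961) and −1.10 (adjusted p = 1.98e-05). SLC2A14, a close relative of SLC2A3 in sequence, was not analysed here, and how fragments that fit both were assigned was not tested.

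The ratio of paralogs within 1 library needs no scaling between libraries. For each of 8 pairs the log2 ratio of FPKM (0.1 added) was compared between days with a two-sided exact sign-flip permutation test over the 15 animals, adjusted over the 24 tests. On day 0 the log2 ratio of SLC2A1 to SLC2A3 had a mean of −5.06 ± 0.98 (SD, n = 15), followed by −2.65 ± 0.80 on day 3 and −1.65 ± 1.11 on day 14. This ratio rose in 15 of 15 animals to day 3 (by 2.41 ± 1.32, exact adjusted p = 4.88e-04) and in 15 of 15 to day 14 (by 3.41 ± 1.47, exact adjusted p = 4.88e-04), which is 10.6-fold. Between day 3 and day 14 it rose by 0.99 ± 1.41 in 11 of 15 animals (exact adjusted p = 0.0467), and leaving out any of 11 animals (2, 3, 4, 5, 6, 8, 9, 12, 13, 14 and 15) took this past the threshold, to at most 0.0850. As a share of the summed FPKM of both genes, SLC2A1 went from 3.43% ± 1.85 (SD, n = 15) to 14.96% ± 7.803 and 26.4% ± 13.9. SLC2A1 was above SLC2A3 in 1 of the 45 libraries, that of animal 15 on day 14, at 56.5% of the sum.

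**Figure D3:**
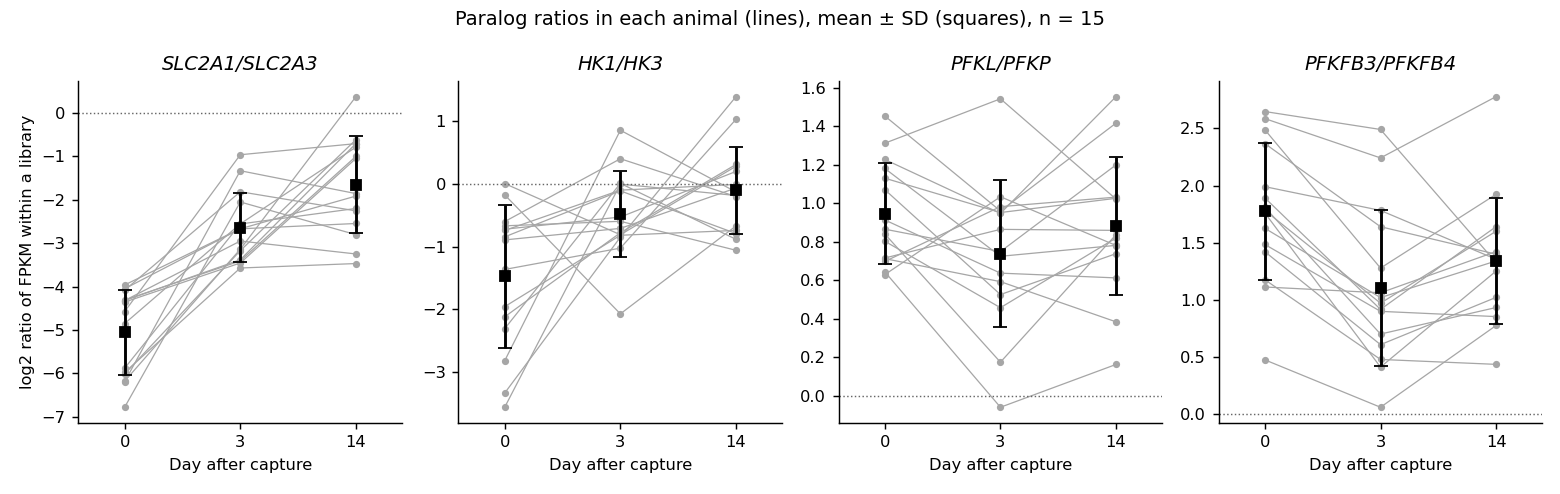
Log2 ratio of FPKM within a library for 4 pairs of paralogs on days 0, 3 and 14; grey lines are the 15 animals, black squares and bars the mean ± SD, and the dotted line marks equal levels. The SLC2A1/SLC2A3 ratio climbs in every animal from day 0, with means of −5.06, −2.65 and −1.65, and PFKL/PFKP has no change that passed the test.

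HK1, the hexokinase found in nearly all cells and the main one of red cells, had a lowest, median and highest level of 9.09, 11.6 and 16.3 FPKM on day 0. On day 3 these were 15.01, 20.05 and 35.6 FPKM, and on day 14 they were 11.03, 19.3 and 49.7 FPKM. On day 3, 12 of 15 animals lay above the whole day 0 range, and on day 14, 9 did. HK1 was higher in 15 of 15 animals on day 3 (log2 fold change 0.76 with a standard error of 0.16, adjusted p = 0.00180) and in 12 of 15 on day 14 (0.68, standard error 0.16, adjusted p = 8.19e-04). Without TMM the day 14 difference was 0.29 (adjusted p = 0.0629, higher in 10 of 15), and HK1 was lower on day 14 than on day 3 (−0.43, adjusted p = 0.0120), where with TMM that difference was −0.08 (adjusted p = 0.778).

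HK2, the inducible hexokinase of muscle and of dividing cells, was the least abundant of the 3. Its lowest, median and highest levels were 3.26, 5.20 and 9.08 FPKM on day 0, 2.96, 6.11 and 9.43 FPKM on day 3, and 2.63, 3.87 and 6.99 FPKM on day 14. The ranges of the 3 days overlapped in nearly all animals. It was lower on day 14 than on day 3 in 13 of 15 animals (log2 fold change −0.54 with a standard error of 0.15, adjusted p = 0.0149). Against day 0 it was lower in 11 of 15 (−0.37, standard error 0.15, adjusted p = 0.0464), a call that was lost with median-of-ratios scaling (adjusted p = 0.0609), with a pseudocount of 1 (0.0505), with no filter (0.0782), without the 2 libraries that had over 30000 genes (0.0569), when any of 9 animals (1, 2, 4, 7, 9, 11, 12, 13 and 14) was left out (adjusted p up to 0.0949) and without the 3 day 0 libraries (−0.25, adjusted p = 0.200). Without TMM it was −0.75 (adjusted p = 3.03e-04, lower in 15 of 15).

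HK3, the hexokinase of myeloid cells, had a lowest, median and highest level of 13.9, 23.7 and 163 FPKM on day 0, 13.6, 29.8 and 66.2 FPKM on day 3, and 13.9, 20.1 and 30.8 FPKM on day 14. The lowest values were alike on the 3 days and the highest fell, so that the coefficient of variation went from 98.5% to 44.6% and 21.1%. Animals 15, 11 and 7 were at 163, 136 and 109 FPKM on day 0, and the next animal was at 57.6 FPKM. HK3 was lower in 9 of 15 animals on day 14 (log2 fold change −0.69 with a standard error of 0.28, adjusted p = 0.0489, 0.0589 with median-of-ratios scaling and 0.0839 with no filter). Leaving out any of animals 2, 5, 6, 7, 8, 11, 13 and 15 took this past the threshold (adjusted p up to 0.130), and without the 3 day 0 libraries it was −0.19 (adjusted p = 0.496). Without TMM it was −1.08 (adjusted p = 4.53e-04). On day 3 the difference was −0.23 (adjusted p = 0.653), and 0.26 without those libraries (adjusted p = 0.480).

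Within the hexokinases the balance moved to HK1. Its log2 ratio to HK2 rose by 0.59 ± 0.78 (SD, n = 15) in 13 of 15 animals on day 3 (exact adjusted p = 0.0163) and by 1.05 ± 0.65 in 14 of 15 on day 14 (exact adjusted p = 0.00110). Its log2 ratio to HK3 differed by 0.997 ± 1.52 on day 3 in 13 of 15 (exact adjusted p = 0.0507) and rose by 1.37 ± 1.48 in 13 of 15 on day 14 (exact adjusted p = 0.00674). The day 3 value passed the threshold without animal 3 (exact adjusted p = 0.00879) or animal 14 (exact adjusted p = 0.0406). Without animals 7, 11 and 15 the day 3 rise against HK2 missed the threshold (0.41, exact adjusted p = 0.0598), and the day 14 changes against HK2 and HK3 were 0.95 (exact adjusted p = 0.00879) and 0.82 (exact adjusted p = 0.0483). For HK2 against HK3 no comparison passed the threshold (changes of 0.41, 0.33 and −0.09). Of the summed FPKM of the 3 hexokinases, HK1 took 25.4% ± 11.5 on day 0, 37.7% ± 10.2 on day 3 and 43.8% ± 10.6 on day 14. HK3 went from 63.9% ± 15.1 to 51.5% ± 9.77 and 47.1% ± 10.4, and the mean share of HK2 lay between 9.103% and 10.9%.

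PFKL, the liver-type subunit of phosphofructokinase, was the most abundant of its family, with a lowest, median and highest level of 18.9, 26.8 and 38.5 FPKM on day 0, 24.04, 36.7 and 59.2 FPKM on day 3, and 19.5, 30.3 and 37.6 FPKM on day 14. The days overlapped, with 5 of 15 day 3 values above the day 0 range. It was higher in 14 of 15 animals on day 3 (log2 fold change 0.40 with a standard error of 0.11, adjusted p = 0.0153), a call that was lost without the 3 day 0 libraries (0.31, adjusted p = 0.0814) and without TMM (0.36, adjusted p = 0.304). Its day 14 level differed from that of day 0 by 0.15 on the log2 scale (adjusted p = 0.290), and without TMM by −0.24 (adjusted p = 0.290). Against day 3, day 14 was lower in 11 of 15 animals (−0.24, adjusted p = 0.129, and 0.0368 with the replicate block).

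PFKP, the platelet-type subunit, had a lowest, median and highest level of 8.89, 12.9 and 23.4 FPKM on day 0, 14.4, 21.3 and 31.1 FPKM on day 3, and 11.98, 16.04 and 24.2 FPKM on day 14. It was highest on day 3, when 4 of 15 values lay above the day 0 range. PFKP was higher in 14 of 15 animals on day 3 than on day 0 (log2 fold change 0.60 with a standard error of 0.12, adjusted p = 0.00113) and lower in 11 of 15 on day 14 than on day 3 (−0.39, standard error 0.12, adjusted p = 0.0282). The latter was lost without animal 1, 2, 8 or 12 (adjusted p up to 0.0703). The day 14 difference from day 0 was 0.22 (adjusted p = 0.155), and without TMM −0.17 (adjusted p = 0.392).

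PFKM, the muscle-type subunit, had the lowest median of the 10 genes on each day, with a lowest, median and highest level of 0.560, 1.61 and 2.25 FPKM on day 0. On day 3 these were 1.58, 2.25 and 3.23 FPKM, and on day 14 they were 1.33, 2.23 and 2.88 FPKM. On day 3, 7 of 15 values lay above the day 0 range, and on day 14, 6 did. Animals 15 and 11 were the lowest on day 0, at 0.560 and 0.735 FPKM, the reverse of their place for SLC2A3 and HK3. PFKM was higher in 12 of 15 animals on day 3 (log2 fold change 0.52 with a standard error of 0.14, adjusted p = 0.00938) and in 13 of 15 on day 14 (0.49, standard error 0.14, adjusted p = 0.00374). Without the 3 day 0 libraries both changes were smaller (0.33, adjusted p = 0.0453, and 0.30, adjusted p = 0.0249). Without TMM neither passed the threshold (0.48, adjusted p = 0.133, and 0.12, adjusted p = 0.622).

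The make-up of phosphofructokinase changed little beside that of the transporters. PFKL took 63.3% ± 3.57 (SD, n = 15) of the summed FPKM of the 3 subunits on day 0, 59.98% ± 6.09 on day 3 and 61.8% ± 5.37 on day 14. PFKP took 33.0% ± 4.10, 36.2% ± 5.98 and 33.7% ± 5.43, and PFKM took 3.69% ± 0.92, 3.87% ± 1.096 and 4.56% ± 0.84. The log2 ratio of PFKL to PFKM fell by 0.36 to day 14 in 11 of 15 animals (exact adjusted p = 0.0467), and that of PFKM to PFKP rose by 0.37 from day 3 to day 14 in 12 of 15 (exact adjusted p = 0.0467). The first was lost without any of 11 animals (2, 4, 6, 7, 8, 9, 10, 11, 13, 14 and 15, exact adjusted p up to 0.0841), and the second without any of 10 (2, 4, 5, 8, 9, 11, 12, 13, 14 and 15, exact adjusted p up to 0.0820). Without animals 7, 11 and 15 the fall of PFKL to PFKM was 0.19 (exact adjusted p = 0.180).

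PFKFB3, an inducible enzyme that mainly makes the activator of phosphofructokinase, had a lowest, median and highest level of 7.701, 14.3 and 83.9 FPKM on day 0, 7.86, 10.9 and 32.1 FPKM on day 3, and 6.25, 9.55 and 12.8 FPKM on day 14. Animals 15, 11 and 7 were at 83.9, 73.6 and 68.0 FPKM on day 0. No day 3 value and 5 of 15 day 14 values lay below the day 0 range. PFKFB3 was lower in 11 of 15 animals on day 3 (log2 fold change −0.89 with a standard error of 0.27, adjusted p = 0.0227) and in 12 of 15 on day 14 (−1.26, standard error 0.27, adjusted p = 2.48e-04). The day 3 call was lost without animal 2, 7, 11 or 15 (adjusted p up to 0.0724) and without the 3 day 0 libraries (−0.44, adjusted p = 0.188). The day 14 call was kept without those libraries (−0.81, adjusted p = 0.00220).

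PFKFB4, its paralog, had a lowest, median and highest level of 1.37, 5.23 and 24.3 FPKM on day 0, 2.42, 5.61 and 12.8 FPKM on day 3, and 1.36, 3.52 and 7.97 FPKM on day 14. Day 0 and day 3 covered much the same range apart from animals 15 and 11, at 24.3 and 21.6 FPKM on day 0. On day 3 it differed from day 0 by −0.22 on the log2 scale (adjusted p = 0.683). It was lower in 13 of 15 animals on day 14 (log2 fold change −0.83 with a standard error of 0.29, adjusted p = 0.0192). That call was lost without animal 15 (−0.69, adjusted p = 0.0529) and without the 3 day 0 libraries (−0.44, adjusted p = 0.182). From day 3 to day 14 PFKFB4 was lower in 14 of 15 animals (−0.61, adjusted p = 0.135, and 0.0366 with the replicate block).

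The log2 ratio of PFKFB3 to PFKFB4 fell in 15 of 15 animals on day 3 (by 0.67 ± 0.39, SD, n = 15, exact adjusted p = 4.88e-04) and in 12 of 15 on day 14 (by 0.44 ± 0.47, exact adjusted p = 0.0139). Without animals 7, 11 and 15 these were −0.60 (exact adjusted p = 0.00391) and −0.41 (exact adjusted p = 0.0483). With a sign test over all 15 animals the day 14 change did not pass the threshold. PFKFB3 took 76.8% ± 7.601 (SD, n = 15) of the summed FPKM of both genes on day 0, 67.7% ± 9.62 on day 3 and 71.5% ± 7.30 on day 14.

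By level per gene length, the order of the 10 genes on day 0 was SLC2A3, HK3, PFKL, PFKFB3, PFKP, HK1, SLC2A1, PFKFB4, HK2 and PFKM, by mean log2 FPKM. Each of SLC2A3, HK1 and HK2 was above the next gene in 15 of 15 animals, and the other neighbours changed places between animals (6 to 10 of 15 in this order). HK3 was above PFKL in 6 of 15 animals, and its median was the lower one (23.7 against 26.8 FPKM). On day 14 SLC2A1 stood behind SLC2A3 and PFKL alone, and was above HK3 in 9 of 15 animals and below PFKL in 8 of 15.

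The within-animal change of each gene was set beside that of the mean log2 level of the erythroid, neutrophil and platelet markers, over 15 animals and 60 relations in all (permutation test with 100000 resamples, adjusted over the 60). The markers themselves changed by 1.59, −1.14 and 1.49 on average on day 3, and by 2.71, −1.46 and 0.62 on day 14. SLC2A1 changed with the erythroid markers on day 14 (r = 0.85, Spearman's rho = 0.88, permutation adjusted p = 3.33e-04 and 4.80e-04, and r = 0.84 without the 2 animals with the most extreme marker change). The r on day 3 was 0.66 (rho = 0.73, permutation adjusted p = 0.0306 and 0.0116, and r = 0.66 without 2 animals), and without TMM it was 0.56 and did not pass (permutation adjusted p = 0.112). HK1 followed on day 14 with r = 0.74 (rho = 0.74, permutation adjusted p = 0.00706 and 0.0116, and r = 0.65 without 2 animals). Without TMM the day 14 r was 0.74 for SLC2A1 (permutation adjusted p = 0.00930) and 0.34 for HK1 (permutation adjusted p = 0.456).

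SLC2A3 changed with the neutrophil markers, with r = 0.96 on day 3 (rho = 0.95, permutation adjusted p = 1e-04 and 1.50e-04, from the smallest p the permutations can give) and r = 0.93 on day 14 (rho = 0.95, with the same adjusted permutation p-values). Without the 2 animals farthest from the median these were 0.94 and 0.91. On both days the 2 animals left out for the neutrophil markers were 7 and 11, so that animal 15 stayed in. Relations without animals 7, 11 and 15 together are not given. For PFKFB3 the r was 0.93 and 0.90, for PFKFB4 0.92 and 0.87, and for HK3 0.89 and 0.75 (rho from 0.725 to 0.936, permutation adjusted p at most 0.0063 for r and 0.0116 for rho, and r from 0.62 to 0.89 without 2 animals). HK2 did so on day 3 (r = 0.73, rho = 0.75, permutation adjusted p = 0.00120 and 0.0106, and r = 0.74 without 2 animals). Without TMM 4 positive relations with the neutrophil markers passed on day 3, where 5 did with it. PFKM went the other way, with r = −0.69 on day 3 (rho = −0.75, permutation adjusted p = 0.0179 and 0.0116, and r = −0.59 without 2 animals) and r = −0.68 on day 14 (rho = −0.69, permutation adjusted p = 0.0171 and 0.0199, and r = −0.64 without 2 animals).

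PFKP changed with the platelet markers on day 14 (r = 0.88, rho = 0.90, permutation adjusted p = 1.50e-04 and 5.25e-04, and r = 0.82 without 2 animals). On day 3 its r was 0.66 (rho = 0.60, permutation adjusted p = 0.0241 and 0.0644, and r = 0.62 without 2 animals), beside 0.76 for HK1 (rho = 0.73, permutation adjusted p = 0.00611 and 0.0116, and r = 0.74 without 2 animals) and 0.66 for SLC2A1 (rho = 0.73, permutation adjusted p = 0.0217 and 0.0116, and r = 0.60 without 2 animals). PFKL had r = 0.63 with them on day 14 (rho = 0.61, permutation adjusted p = 0.0395 and 0.0624, and r = 0.52 without 2 animals). Without TMM no relation with the platelet markers passed the threshold (r = 0.57 for PFKP on day 14, permutation adjusted p = 0.107). In all 19 of 60 relations passed on r, and 11 did without TMM, of which 5 on each day were with the neutrophil markers. The share of all tested genes that would pass against the same markers is not given. These counts are therefore not read as particular to the 10 genes. The genes and the markers come from the same libraries. With the 3 marker levels as covariates in the limma fit, 0 of the 10 genes passed the threshold in each comparison (3, 1 and 2 had an unadjusted p under 0.05), and 1, 66 and 49 of all 18753 genes did. In that fit the day 14 log2 fold change was 0.56 for SLC2A1 (standard error 0.33), −0.45 for SLC2A3 and 0.03 for PFKFB3. The part that cell numbers have in these changes was not tested.

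**Figure D4:**
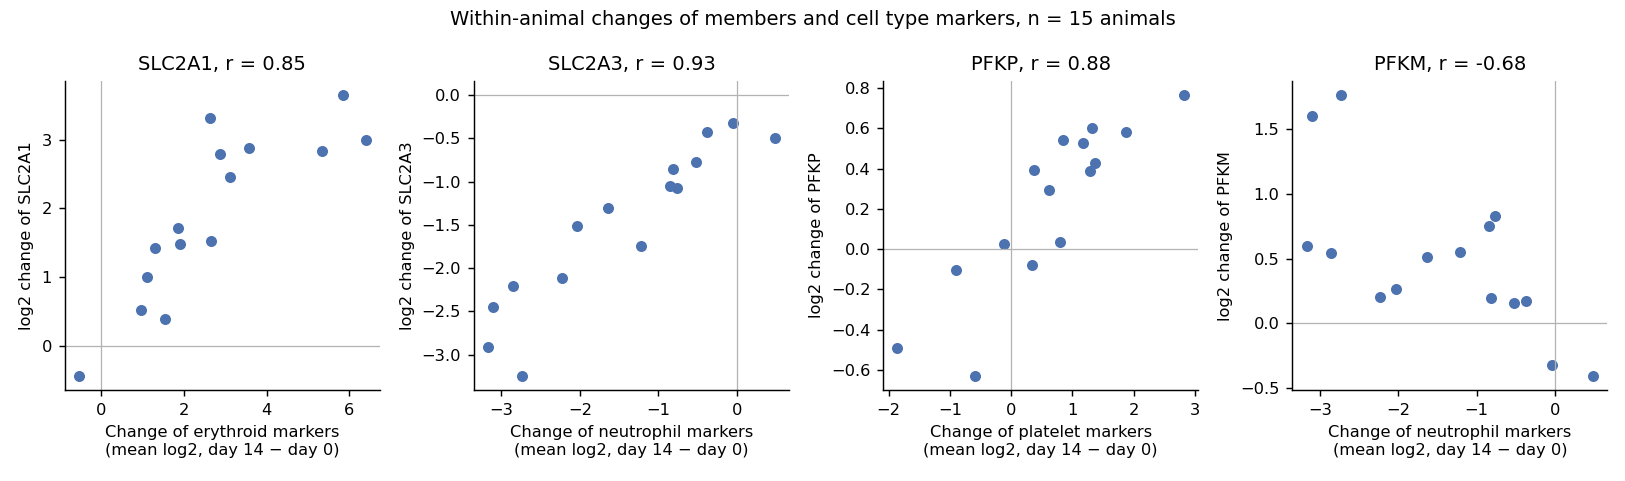
Change from day 0 to day 14 in each of 15 animals, of the mean log2 level of a marker list (x axis) and of a gene's log2 level (y axis, TMM-scaled); each point is 1 animal. The r is 0.85 for SLC2A1 with erythroid markers, 0.93 for SLC2A3 with neutrophil markers, 0.88 for PFKP with platelet markers and −0.68 for PFKM with neutrophil markers.

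For each gene the 3 others most like it over the 45 libraries were found by Pearson's r of log2 levels, as a description. The libraries share days and animals. SLC2A1 was most like ANK1 (r = 0.95), which encodes the ankyrin of the red cell membrane, TLN2 and TMCC2, which is itself on the erythroid marker list. SLC2A3 was most like FRAT2 (r = 0.95), CEACAM8, a granulocyte surface protein, and FBXL5. HK1 was most like MFHAS1 (r = 0.90), the amino acid transporter SLC1A5 and RNF123. HK2 was most like TLE1 (r = 0.83), TTC7B and PTPN6, and HK3 was most like PSTPIP2 (r = 0.91), ASRGL1 and the leukotriene enzyme ALOX5. PFKL was most like U2AF2 (r = 0.93), a splicing factor, CXXC1 and EHMT2, and PFKM was most like AARS (r = 0.84), QRICH1 and CUL4A. PFKP was most like PTGS1 (r = 0.85), the cyclooxygenase of platelets, TSPAN9 and the integrin chain ITGB3, which is on the platelet marker list. PFKFB3 was most like CFLAR (r = 0.96), UPP1 and HDAC4, and PFKFB4 was most like TKT (r = 0.80), an enzyme of the pentose phosphate pathway, PTPRE and GAS7. Among the 10 genes themselves SLC2A3 and PFKFB3 were the closest pair (r = 0.88), followed by SLC2A1 and HK1 (r = 0.83), and SLC2A3 and PFKM were the farthest apart (r = −0.69).

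Other genes of glucose use were read from 7 lists, with all 10 genes above left out. In all, 61 were tested, and 2 rose and 9 fell on day 3, 9 rose and 22 fell on day 14, and 3 rose and 5 fell between day 3 and day 14. The share called was 12.4%, 36.2% and 14.5% over all tested genes, and the counts of several lists lie near it, such as 5 of 13 later enzymes on day 14. Without TMM 3 rose and 10 fell, 5 rose and 38 fell, and 1 rose and 35 fell. With the replicate block 5 rose and 13 fell, 10 rose and 24 fell, and 3 rose and 7 fell. In that fit 19.4%, 44.2% and 25.4% of all tested genes passed. Without the 3 day 0 libraries 1 rose and 4 fell on day 3 and 8 rose and 15 fell on day 14, where 8.48% and 34.6% of all tested genes passed. Among the genes named below, those libraries decided the day 14 calls of FBP1, ADPGK, PFKFB2, PKM, PGK1, PGD and TKT, whose adjusted p without them was 0.0507 to 0.4001. Of 8 tested SLC2A transporters 1 changed on day 3 (down), 2 on day 14 (1 up and 1 down), and 2 fell from day 3 to day 14. Without TMM 1 fell on day 3, 3 fell on day 14 and 5 between them, and without the 3 day 0 libraries the counts on day 3 and day 14 were as large. With the replicate block 2 of these transporters rose and 1 fell on day 3. SLC2A13, a transporter of myo-inositol, went from 5.75 ± 4.06 FPKM (SD, n = 15) on day 0 to 2.71 ± 0.79 and 2.07 ± 0.38 (log2 fold change −1.21 with a standard error of 0.19 on day 14, adjusted p = 6.21e-06, lower in 15 of 15). SLC2A8 went from 1.15 ± 0.35 to 1.82 ± 0.61 FPKM on day 14 (0.61, adjusted p = 0.00260, higher in 15 of 15, and 0.24 without TMM, adjusted p = 0.260). SLC2A5, the fructose transporter, fell from day 3 to day 14 (−1.21, adjusted p = 0.0174), as did SLC2A10 (−0.45, adjusted p = 0.0481), from levels of 0.561 and 0.175 FPKM on day 3. In that comparison 1 transporter of the list passed with median-of-ratios scaling, and 1 with limma-voom.

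Of 8 tested enzymes that act at or against the same steps, 1 changed on day 3 (down) and 5 on day 14 (1 up and 4 down). Without the 3 day 0 libraries 0 passed on day 3 and 2 on day 14 (1 up and 1 down), and without TMM 1 rose and 1 fell on day 3 and 1 rose and 5 fell on day 14. FBP2, one of the bisphosphatases that undo the phosphofructokinase step, fell from 1.72 ± 1.72 FPKM on day 0 to 0.317 ± 0.208 on day 14 (log2 fold change −1.76 with a standard error of 0.35, adjusted p = 1.23e-04, lower in 15 of 15). FBP1, the other, went from 9.82 ± 9.12 to 3.14 ± 1.74 FPKM (−1.22, adjusted p = 0.00445). HKDC1, a further hexokinase, rose from 0.0253 ± 0.0198 to 0.159 ± 0.174 FPKM (0.86, adjusted p = 0.00216, higher in 15 of 15), at levels near the value of 0.1 that was added. ADPGK fell by 0.26 (adjusted p = 0.0199). PFKFB2, a paralog of PFKFB3 and PFKFB4 picked out after its values were seen, went from 23.2 ± 39.4 to 3.10 ± 1.92 FPKM (−1.37, adjusted p = 0.0296). From day 3 to day 14 no enzyme of the list changed, 0 also at an unadjusted p under 0.05 and with limma-voom, but 4 of the 8 fell without TMM.

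Of 13 tested enzymes of the later steps, 2 changed on day 3 (1 up and 1 down), 5 on day 14 (3 up and 2 down) and 2 between day 3 and day 14 (1 up and 1 down). Without TMM 1 rose on day 3, 2 rose and 9 fell on day 14, and 1 rose and 7 fell between them. With the 3 day 0 libraries left out 0 passed on day 3, and 2 rose and 1 fell on day 14. BPGM, which makes the phosphate that lowers hemoglobin's hold on oxygen, moved from 452 ± 527 FPKM on day 0 to 1674 ± 979 on day 14 (log2 fold change 2.23 with a standard error of 0.39, adjusted p = 2.55e-05, higher in 15 of 15). PKLR, the pyruvate kinase of liver and red cells, rose from 0.0876 ± 0.0831 to 0.853 ± 1.099 FPKM (1.81, standard error 0.36, adjusted p = 1.25e-04). PKM, the pyruvate kinase of most other cells, fell by 0.42 on the log2 scale (adjusted p = 0.0137) and PGK1 by 0.37 (adjusted p = 0.0104). The median of the list on day 14 was −0.11, near that of all tested genes.

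Of 13 tested genes for the fate of pyruvate and lactate, 3 changed on day 3 (1 up and 2 down), 6 on day 14 (3 up and 3 down) and 2 between day 3 and day 14 (both up). Between day 3 and day 14 the direction turned without TMM, with 0 up and 3 down, and on day 14 there were 1 up and 3 down. Without the 3 day 0 libraries 1 rose and 3 fell on day 3, and 3 rose and 3 fell on day 14. Of 3 tested transporters of lactate and pyruvate, 1 rose, 1 fell and 1 did not pass the test. SLC16A1 rose from 23.6 ± 19.8 FPKM on day 0 to 131 ± 117 on day 14 (log2 fold change 2.44 with a standard error of 0.47, adjusted p = 7.29e-05, higher in 15 of 15), and SLC16A3 fell from 110 ± 74.6 to 42.3 ± 9.96 FPKM (−1.12, standard error 0.23, adjusted p = 1.67e-04, lower in 14 of 15). SLC16A7 differed by 0.18 on day 14 (adjusted p = 0.460). PDK1, a mitochondrial kinase that inhibits pyruvate dehydrogenase, fell by 0.52 on day 3 (adjusted p = 0.00187) and by 0.82 on day 14 (adjusted p = 6.80e-07, lower in 15 of 15). MPC2, a subunit of the mitochondrial pyruvate carrier, rose by 0.38 on day 14 (adjusted p = 4.89e-04), and differed by −0.01 without TMM (adjusted p = 0.948).

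**Figure D5:**
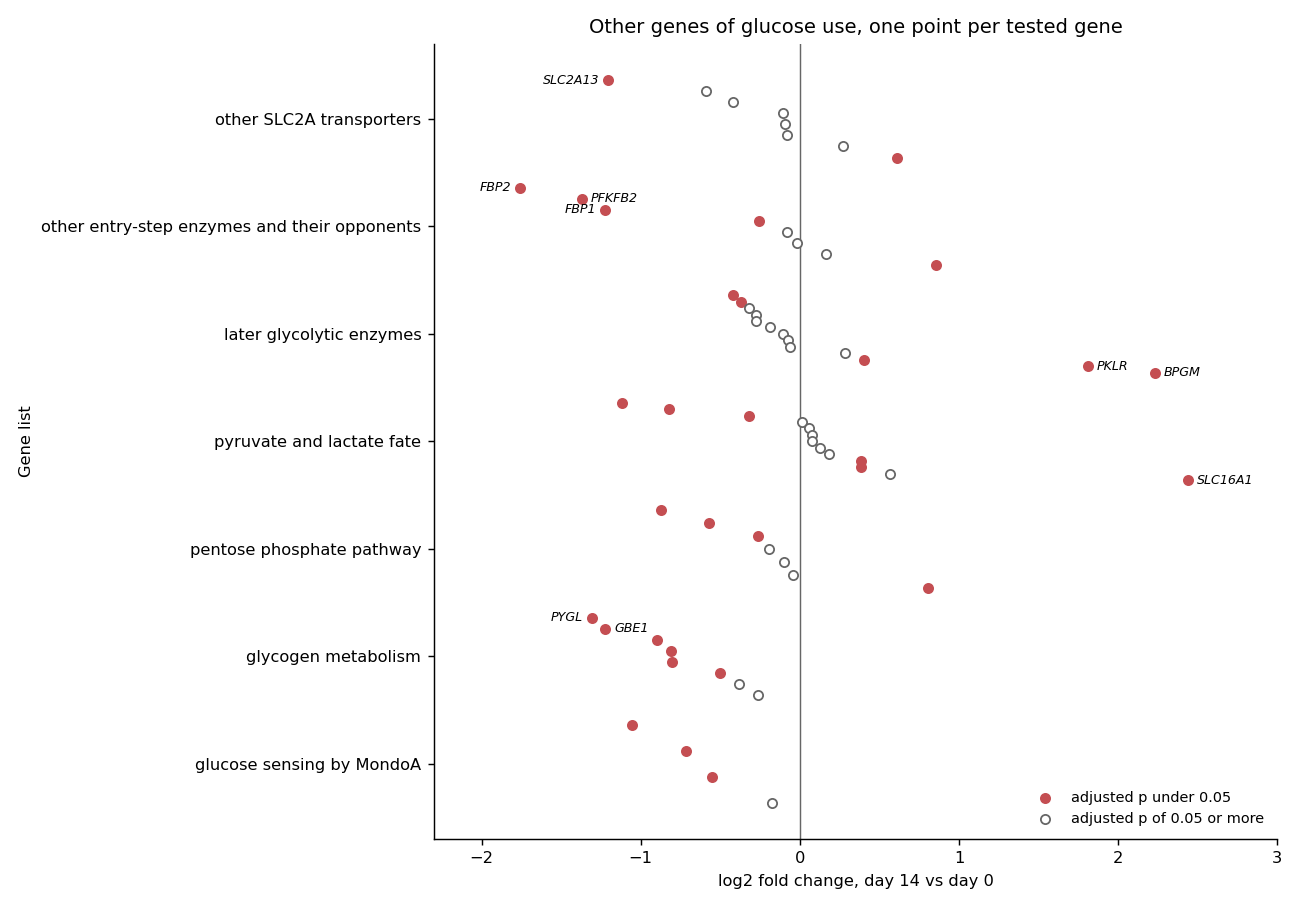
Log2 fold change on day 14 vs. day 0 (x axis, limma, 15 animals per day) of each tested gene of the 7 other lists (rows); red points have an adjusted p under 0.05, and genes beyond 1.2 on either side are named. SLC16A1 (2.44), BPGM (2.23) and PKLR (1.81) lie farthest to the right, and no tested gene of the glycogen list lies above 0.

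Of 8 tested genes of glycogen metabolism 3 changed on day 3 and 6 on day 14, all down, and the median log2 fold change was −0.47 and −0.81. GBE1, the branching enzyme, moved from 60.7 ± 57.6 FPKM on day 0 to 19.1 ± 3.87 on day 14 (log2 fold change −1.22 with a standard error of 0.26, adjusted p = 2.09e-04), and PYGL, the liver-type phosphorylase, from 152 ± 129 to 49.2 ± 21.1 FPKM (−1.31, standard error 0.31, adjusted p = 8.16e-04). PYGM fell by 0.81 (adjusted p = 6.43e-04) and PGM2 by 0.81 (adjusted p = 0.00193), each in 15 of 15 animals. From day 3 to day 14, 1 of the 8 fell, where 8 of 8 fell without TMM and 0 with median-of-ratios scaling. The neutrophil markers moved the same way, with 5 of 10 down on day 3 and 9 of 10 on day 14. Without the 3 day 0 libraries, which those markers picked out, 0 of the 8 glycogen genes passed on day 3 and 5 fell on day 14, with medians of −0.17 and −0.45. The day 14 values were then −0.74 for GBE1 (adjusted p = 7.99e-04), −0.86 for PYGL (adjusted p = 0.0109), −0.68 for PYGM (adjusted p = 0.00537) and −0.47 for PGM2 (adjusted p = 0.0226). With the marker levels as covariates 0 of the 8 passed in each comparison, and the part of neutrophil numbers was not tested. Of 7 tested genes of the pentose phosphate pathway 0 changed on day 3 (2 at an unadjusted p under 0.05 and 0 with limma-voom), 4 changed on day 14 (1 up and 3 down) and 0 between day 3 and day 14 (1 at an unadjusted p under 0.05 and 0 with limma-voom). Without TMM 1 fell on day 3, 1 rose and 6 fell on day 14, and 5 fell between them, and with the replicate block 2 fell on day 3. When the 3 day 0 libraries were left out, 0 passed on day 3, and 1 rose and 1 fell on day 14. PGD fell by 0.87 (adjusted p = 0.00526), TKT by 0.57 (adjusted p = 0.0465) and RPE by 0.26 (adjusted p = 0.0411), and TALDO1 rose by 0.81 (adjusted p = 0.00866). Of 4 tested genes of glucose sensing by MondoA, a transcription factor that responds to glucose phosphate, 1 fell on day 3, 3 on day 14 and 1 between them. Without TMM it was 2, 4 and 3, and without the 3 day 0 libraries 0 passed on day 3 and 3 fell on day 14. MLXIP, which encodes MondoA, fell by 0.72 (adjusted p = 9.13e-04), and the targets ARRDC4 by 1.05 (adjusted p = 0.00123) and TXNIP by 0.55 (adjusted p = 0.00872). GPI, PGAM1, TIGAR and PYGB were not analysed here.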

How the data were processed

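Blood RNA was depleted of ribosomal and globin transcripts, made into stranded libraries (TruSeq Stranded) and sequenced on an Illumina HiSeq. Per the labels and the study's methods, the authors demultiplexed with bcl2fastq 2.17, aligned to the Chlorocebus_sabeus 1.1 genome with STAR, counted with HTSeq and deposited 1 table of FPKM per sample. The deposited FPKM values came out as whole fragments in 100.0% of values above 0 (tolerance 0.05 fragments) once each gene's length and each library's total were solved for.

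FPKM were divided by TMM factors computed from these fragments. Genes above 0.5 CPM in at least 3 of 45 samples were tested with limma 3.58.1 (R 4.3.3, eBayes with trend) on log2(scaled FPKM + 0.1), 1 mean per day, with Benjamini-Hochberg adjustment over all 18753 genes and a threshold of 0.05. Fold changes on this scale understate the change of low genes. The study's methods name a count model. Because the deposited unit is FPKM, limma on the log scale was the main test, and the recovered fragments served for an alternative. Limma-voom on the recovered fragments called 2331, 6564 and 2990 genes in the 3 comparisons, where limma called 2322, 6789 and 2717.

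Groups come from the labels, which also pair the samples by animal. Deviations from the day means correlated with a mean r of 0.33 over 45 pairs of libraries from the same animal, of which 41 were above 0.1, and of −0.02 over 630 pairs from different animals. Paralog ratios, relations and figures were made with Python 3.11.15, numpy 2.4.6, pandas 2.3.3, scipy 1.17.1 and matplotlib 3.10.9. The limma fit was tested on simulated data, without animal effects or TMM scaling. The RNA integrity number used as a covariate was taken from the study's supplement.

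The 10 genes, the marker lists and the pathway lists were chosen with earlier results of these data known. Named beside the 10 genes are, by rule, the up to 4 called genes of each pathway list with the lowest adjusted p in any comparison, and the 3 genes most like each of the 10, LOC symbols left out, with PFKFB2 and SLC16A7 added after their values were seen. A symbol given to more than 1 row occurred 1 time and is not among the genes named. Coordinates and sequences are not given here.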

Additional observations from a re-analysis of the deposited data

How the results depend on the processing

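With limma-voom on recovered fragments and with a pseudocount of 0.01, the fold changes of the 10 genes kept their direction and side of the threshold in all 30 cases. The number of the 10 genes that passed was 7, 8 and 2 on day 3, on day 14 and between them. It was 0 in each with marker levels as covariates (0.00533%, 0.352% and 0.261% of all tested genes), 4 on day 14 with the RNA integrity number (21.8%), 4 with that and the replicate block together (23.2%), and 5 without the 3 day 0 libraries with the most neutrophil marker RNA (34.6%). Between day 3 and day 14 it was 8 without TMM (38.6% of all tested genes) and 4 with the replicate block (the animal, 25.4%), which changed no other call of the 10 genes. Leaving out 1 animal gave 6 to 7, 6 to 8 and 1 to 2. In those fits 1441 to 2410, 5962 to 6986 and 956 to 3438 of all 18753 tested genes passed. Of 5 paralog pairs that changed on day 14, 3 did with a sign test, where PFKL/PFKM and PFKFB3/PFKFB4 did not. Of 2 between day 3 and day 14, 0 did, with 0 to 3 when 1 animal was left out. The pathway lists had 18 called genes on day 3 with the replicate block, where 11 were called without it (19.4% and 12.4% of all tested genes), 5 without the 3 day 0 libraries (8.48%), and 36 between day 3 and day 14 without TMM, where 8 were called with it. Of 19 relations with marker levels, 11 passed without TMM, and the share over all tested genes is not given.

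Signs turned as follows. With marker levels as covariates the log2 fold change on day 3 was 0.72 for HK3, 0.0585 for PFKFB3 and 0.61 for PFKFB4, and on day 14 −0.0040 for HK1, 0.0318 for HK2, 0.18 for HK3, −0.0093 for PFKP, 0.0273 for PFKFB3 and 0.0624 for PFKFB4. On day 14 without TMM it was −0.24 for PFKL and −0.17 for PFKP, and with the RNA integrity number −0.0358 for PFKL. For PFKM between day 3 and day 14 it was 0.0010 with median-of-ratios scaling and −0.0625 to 0.0194 when 1 animal was left out. Without the 3 day 0 libraries it was 0.26 for HK3 and 0.17 for PFKFB4 on day 3. For paralog ratios, the change of HK2/HK3 was 0.02 between day 3 and day 14 with a pseudocount of 1, and −0.14 on day 14 without animals 7, 11 and 15. That of PFKL/PFKM on day 3 was 0.0382 with a pseudocount of 1, 0.0176 with a sign test (median) and 0.0363 without those animals. The cause of these changes was not tested. The settings that leave out the 3 day 0 libraries, those 3 animals, the 2 libraries with over 30000 genes, or the highest library of a day were chosen after seeing the data.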
